A study of Mus musculus with 29 samples.

Results

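The comparison described here is that of fasted livers carrying Prox1 K556R with fasted wild-type (WT) livers. By the labels on genotype and treatment it takes 15 of the 29 libraries of the study, 7 fasted K556R and 8 fasted WT, and it covers all 15603 genes that had enough counts to test. The mice were males in which hepatic expression of Prox1 K556R was switched on by Cre recombination at 8 weeks of age, after which they ate a diet with 45% fat and 20% fructose for 18 weeks. Livers were taken fasted or after refeeding at ZT 15 to 17, and poly-A RNA was sequenced. Fasted K556R livers number 4 in batch 1 and 3 in batch 2, and fasted WT livers 4 in each. All of these animals, WT included, had the fat and fructose diet, so no lean liver enters the comparison. The titles name the K556R libraries Cre and the WT libraries Ctrl, and the sources used here do not say what the controls received in place of Cre. An effect of the allele and an effect of the Cre treatment therefore cannot be told apart. The allele is described as specific to hepatocytes, whereas the RNA comes from whole liver, so other liver cells contribute WT transcripts to every library. Nothing beyond the labels says that replicates are separate mice, and the spread behind every p-value is that between libraries, which may be technical.

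Prox1, a transcription factor with a homeodomain, is made in hepatocytes, where it binds nuclear receptors and corepressors and restrains bile acid and lipid genes. SUMO is a small protein that is attached to lysines of other proteins, many of them transcription factors, and often makes them more repressive. Type I interferon, whose signalling and target genes make up 8 of the 16 called genes in this comparison, acts through its receptor, JAK kinases and a complex that contains STAT2 and IRF9, which binds interferon response elements in the promoters of antiviral genes.

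The residue at issue lies in exon 2 of Prox1. The codon of the lysine that K556R replaces is printed in capitals within codons 545 to 566 of the reference coding sequence (GENCODE M21, GRCm38, minus strand, the codon at chr1:190160579-190160581), to show the site of the allele.
Prox1 codons 545 to 566: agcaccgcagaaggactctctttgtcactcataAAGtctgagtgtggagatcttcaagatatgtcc
It reads AAG and is preceded by ATA at codon 555 and followed, at codon 558, by GAG, so that isoleucine, lysine, any residue and glutamate follow each other in the order of a SUMO acceptor site. Gene-level counts do not read single bases, so they show neither whether the allele is present nor its share of Prox1 transcripts.

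The promoters below belong to interferon-list genes, called or next in order of p, that carry the letters of an interferon response element. Genes without it were passed over, among them the called Irf7, Irf9 and Ifi44, whose windows held no match. Each is 160 bases, 5′ to 3′ on the gene's strand, from RefSeq (GRCm38.p6). Capitals mark GAAA followed by any 2 bases and a further GAAA, searched on both strands, so that its reverse complement counts as well, with overlapping matches joined.
Apol9a, chr15:77411081-77411240 (- strand): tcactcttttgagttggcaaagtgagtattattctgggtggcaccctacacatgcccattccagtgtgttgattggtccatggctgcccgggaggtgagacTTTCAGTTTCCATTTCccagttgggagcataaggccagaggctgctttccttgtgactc
Apol9b, chr15:77728912-77729071 (+ strand): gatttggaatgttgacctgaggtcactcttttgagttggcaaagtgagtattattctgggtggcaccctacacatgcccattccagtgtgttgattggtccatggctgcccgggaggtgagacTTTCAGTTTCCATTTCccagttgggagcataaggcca
Trim30d, chr7:104507850-104508009 (- strand): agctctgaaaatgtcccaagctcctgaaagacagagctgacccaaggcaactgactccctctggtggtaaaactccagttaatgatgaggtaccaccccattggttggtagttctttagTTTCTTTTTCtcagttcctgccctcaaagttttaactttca
Irgm1, chr11:48871421-48871580 (- strand): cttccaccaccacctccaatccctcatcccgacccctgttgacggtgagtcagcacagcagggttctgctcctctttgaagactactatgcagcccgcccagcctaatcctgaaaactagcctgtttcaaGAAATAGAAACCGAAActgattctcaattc
Ifit3, chr19:34583369-34583528 (+ strand): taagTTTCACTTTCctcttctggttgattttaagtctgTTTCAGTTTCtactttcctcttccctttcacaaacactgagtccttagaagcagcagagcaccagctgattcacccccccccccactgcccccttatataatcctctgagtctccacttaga
Gbp3, chr3:142559884-142560043 (+ strand): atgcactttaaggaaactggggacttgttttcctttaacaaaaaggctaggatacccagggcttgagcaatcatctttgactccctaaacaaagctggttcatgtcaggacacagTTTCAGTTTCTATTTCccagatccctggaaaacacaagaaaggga
The Apol9a and Apol9b windows share an unbroken stretch of 138 bases, capitals included. Over windows of 300 bases (250 before the start, 50 after it), the motif occurred in 3.44% of the 32851 windows in the table and in 427 of the 11065 tested genes that have a window (3.86%). It occurred in 22 of 37 interferon-stimulated effectors with a window and in 9 of 10 interferon-inducible GTPases. Among called genes it occurred in 3 of the 11 higher ones with a window and in 0 of the 3 lower ones. Usp18 and Rtp4 have no entry. A match describes letters in a window and not binding.

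Libraries held 16208230 to 27159288 counts. The first principal component of the fasted libraries held 50.4% of the variance, and 98.3% of it lay between batches, so batch is a term of the model and values within each batch are given. Of the first 5 components, the one most tied to genotype was the fifth, with 4.94% of the variance, of which 52.8% lay between genotypes. Hepatocyte markers differed little between genotypes (12 tested, median log2 fold change 0.01, 0 with unadjusted p below 0.05), and Alb, Ttr and Apoa1 were abundant in all libraries.

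The difference between genotypes was small in number of genes. In edgeR's quasi-likelihood test 13 genes were higher and 3 lower in K556R at a Benjamini-Hochberg adjusted p below 0.05, of 15603 tested (0.103% in either direction, 0.0833% higher and 0.0192% lower). Of the 13 that rose, 8 were on lists of interferon signalling and interferon-stimulated genes: Usp18, Irf7, Irf9, Ifi44, Apol9a, Apol9b, Rtp4 and Trim30d. The other 5 were Mbl2, Gldn, Slco1c1, Gm5724 and the transcript Gm20559, and the 3 that fell were Lipe, Aspg and Clpb. Of the 20 genes next in order of p, none of which passed (adjusted p 0.0506 to 0.0679, edgeR quasi-likelihood), 16 were higher in K556R and 11 were interferon-list genes, among them Irgm1, Ifit3, Isg15 and Oas3. The number called depended on the libraries and the method: 2 to 46 genes over the 29 fits that each left out 1 library, 89 with DESeq2 and 118 with limma-voom and sample quality weights. It was 2 without a batch term (Gm5724 and Gldn) and 2 with a block per batch and replicate number (Gm5724 and Aspg). Neither of these called an interferon-list gene. Of the 29 fits without 1 library, Gm5724 and Gldn were called in all, Slco1c1 in 10 of the 23 that tested it, and the other 13 in 9 to 24. Leaving out any 1 of the fasted batch 1 libraries other than K556R replicate 2 left 2 to 5 genes, as did leaving out K556R replicate 1 or 3 of batch 2 (5 each). Without K556R replicate 2 of batch 1 there were 43, and without replicate 2 of batch 2 there were 36.

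**Figure D1:**
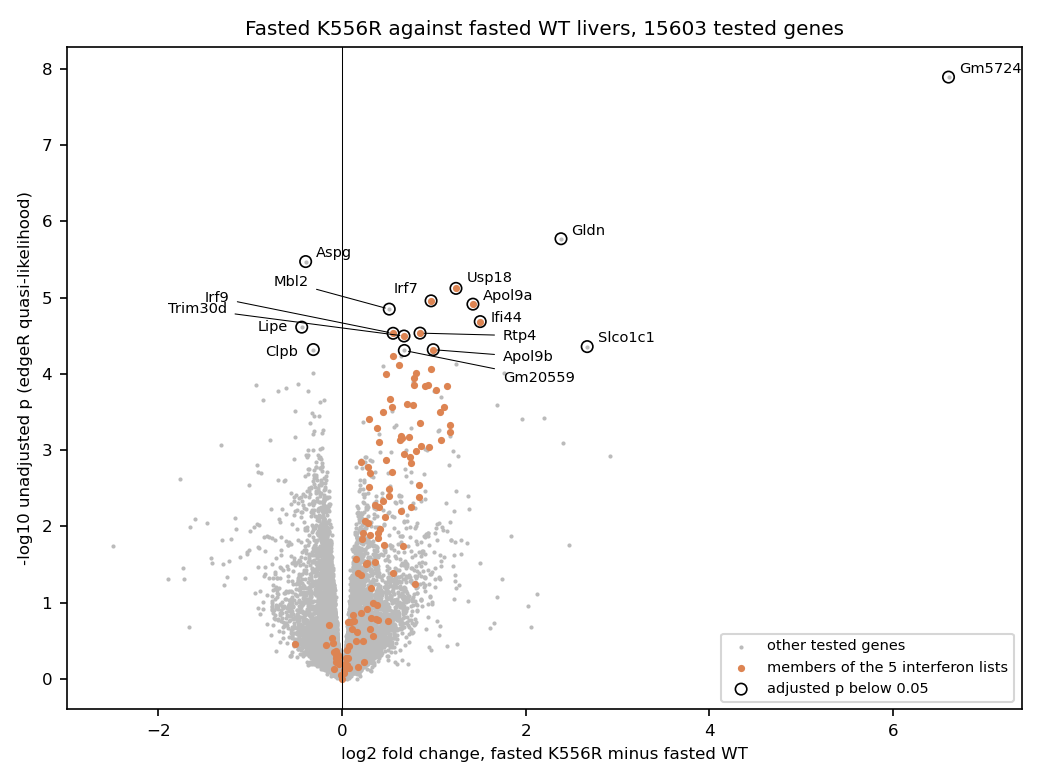
Log2 fold change of fasted K556R over fasted WT (x axis) against -log10 of the unadjusted p from edgeR's quasi-likelihood test (y axis), 1 point per tested gene. Orange points are members of the 5 interferon lists and ringed points the 16 called genes; of 126 tested interferon-list genes, 16 lie left of 0.

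Prox1 mRNA itself did not pass the test. It ranged from 153 through a median of 174 to 195 CPM (read counts scaled to the library total, with TMM factors) in WT and from 167 through 187 to 203 in K556R. The groups overlapped, at a log2 fold change of 0.09 (SE 0.09) and an adjusted p of 0.807 in edgeR's quasi-likelihood test.

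Interferon genes themselves were nearly silent at the depth of these libraries. None of the 21 ligand genes on the list, alpha, beta, gamma and others, reached the count needed for testing. Their reads summed to 19 in the 8 WT and 39 in the 7 K556R libraries, with 29 of the 39 on Ifnk, a keratinocyte interferon, which had at most 11 reads in any library. Ifnb1 had 1 read in each genotype and Ifng 7 in WT and 3 in K556R.

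Among receptors, kinases, STAT and IRF factors 3 genes rose and most others gave values near 0. Of 23 tested, 15 had a log2 fold change above 0, where all tested genes gave 50.0%, and the median was 0.07. The called members were Usp18, Irf7 and Irf9. In all, 5 had an unadjusted p below 0.05 on the higher side and 0 on the lower side.

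Usp18, a protease that removes ISG15 from proteins and damps receptor signalling, ranged from 8.42 (median 12.1) to 16.8 CPM in WT and from 8.50 (median 24.9) to 60.5 CPM in K556R. All 4 K556R libraries of batch 1 lay above every WT library, while those of batch 2 lay at 8.50 to 18.8 beside WT at 8.42 to 11.8. Usp18 rose by 1.24 on the log2 scale (SE 0.23, adjusted p = 0.0296 in edgeR's quasi-likelihood test), by 1.76 in batch 1 and 0.52 in batch 2.

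Irf7, the interferon-induced factor that drives further interferon transcription, ranged from 29.2 (median 35.1) to 44.1 CPM in WT and from 38.2 (median 61.3) to 115 CPM in K556R. The 2 lowest K556R libraries, both of batch 2, fell within the WT range. It rose by 0.97 on the log2 scale (SE 0.18, adjusted p = 0.0316 in edgeR's quasi-likelihood test), 1.42 in batch 1 and 0.39 in batch 2.

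Irf9, the DNA-binding part of the STAT complex, ranged from 25.2 (median 29.9) to 39.4 CPM in WT and from 40.2 (median 44.0) to 52.5 CPM in K556R. Every K556R library lay above every WT library. It rose by 0.56 on the log2 scale (SE 0.11, adjusted p = 0.0415 in edgeR's quasi-likelihood test), 0.78 in batch 1 and 0.34 in batch 2. Stat2, its partner, stood at 0.29 (SE 0.07, adjusted p = 0.104 in the same test) and did not pass.

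Interferon-stimulated effectors, the antiviral proteins that the pathway induces, gave higher values in K556R in nearly every case. Of 49 tested, 48 had a log2 fold change above 0, 45 had an unadjusted p below 0.05 on the higher side (4.29% of all tested genes did) and 0 on the lower side, and the median was 0.67 against -0.00027 for all genes. The adjusted test was passed by 5: Apol9a, Apol9b, Rtp4, Ifi44 and Trim30d. In 8 of the 49, every K556R library lay above every WT library of its own batch, which 0.211% of all tested genes did. This list, like the others, was drawn up with earlier results of these data known. Its members also vary together between libraries. The counts therefore describe the members and are no test of the list.

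Apol9a and Apol9b are apolipoprotein L genes on chromosome 15 with antiviral activity. Apol9a ranged from 15.2 (median 26.0) to 42.1 CPM in WT and from 47.5 (median 66.9) to 91.0 CPM in K556R. The 2 ranges did not overlap, and in both batches the K556R libraries were higher. Those of Apol9b were apart in batch 1 and overlapped in batch 2 (lowest K556R 68.4, highest WT 68.9 CPM). Apol9a rose by log2 1.42 (SE 0.27, adjusted p = 0.0316, edgeR quasi-likelihood) and Apol9b by 0.99 (SE 0.21, adjusted p = 0.0482). They are paralogs, and how reads that fit both were counted is not given, so the split of reads between the pair is uncertain.

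Rtp4, an inhibitor of flavivirus replication, ranged from 9.44 (median 11) to 12.2 CPM in WT and from 13.4 (median 17.4) to 29.3 CPM in K556R. Here too no K556R library reached down to the WT range. It rose by 0.85 on the log2 scale (SE 0.17, adjusted p = 0.0415 in edgeR's quasi-likelihood test).

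Ifi44, an interferon-induced cytoplasmic protein, had the largest change of the called effectors. It ranged from 2.37 (median 3.55) to 4.82 CPM in WT and from 2.98 (median 8.41) to 21.5 CPM in K556R. The lowest K556R library, replicate 2 of batch 2, lay within the WT range. It rose by 1.5 on the log2 scale (SE 0.30, adjusted p = 0.0403 in edgeR's quasi-likelihood test), 2.16 in batch 1 and 0.65 in batch 2.

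Trim30d, a member of a tripartite-motif family of which several copies lie side by side, ranged from 4.48 (median 5.85) to 7.62 CPM in WT and from 6.36 (median 9.77) to 14.4 CPM in K556R. Within each batch all K556R libraries were above all WT libraries. It rose by 0.67 on the log2 scale (SE 0.14, adjusted p = 0.0415 in edgeR's quasi-likelihood test). Gm20559, a processed transcript on chromosome 6, ranged from 5.33 to 6.94 CPM in WT and from 6.41 to 13.9 in K556R, and rose by 0.68 (SE 0.14, adjusted p = 0.0482).

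**Figure D2:**
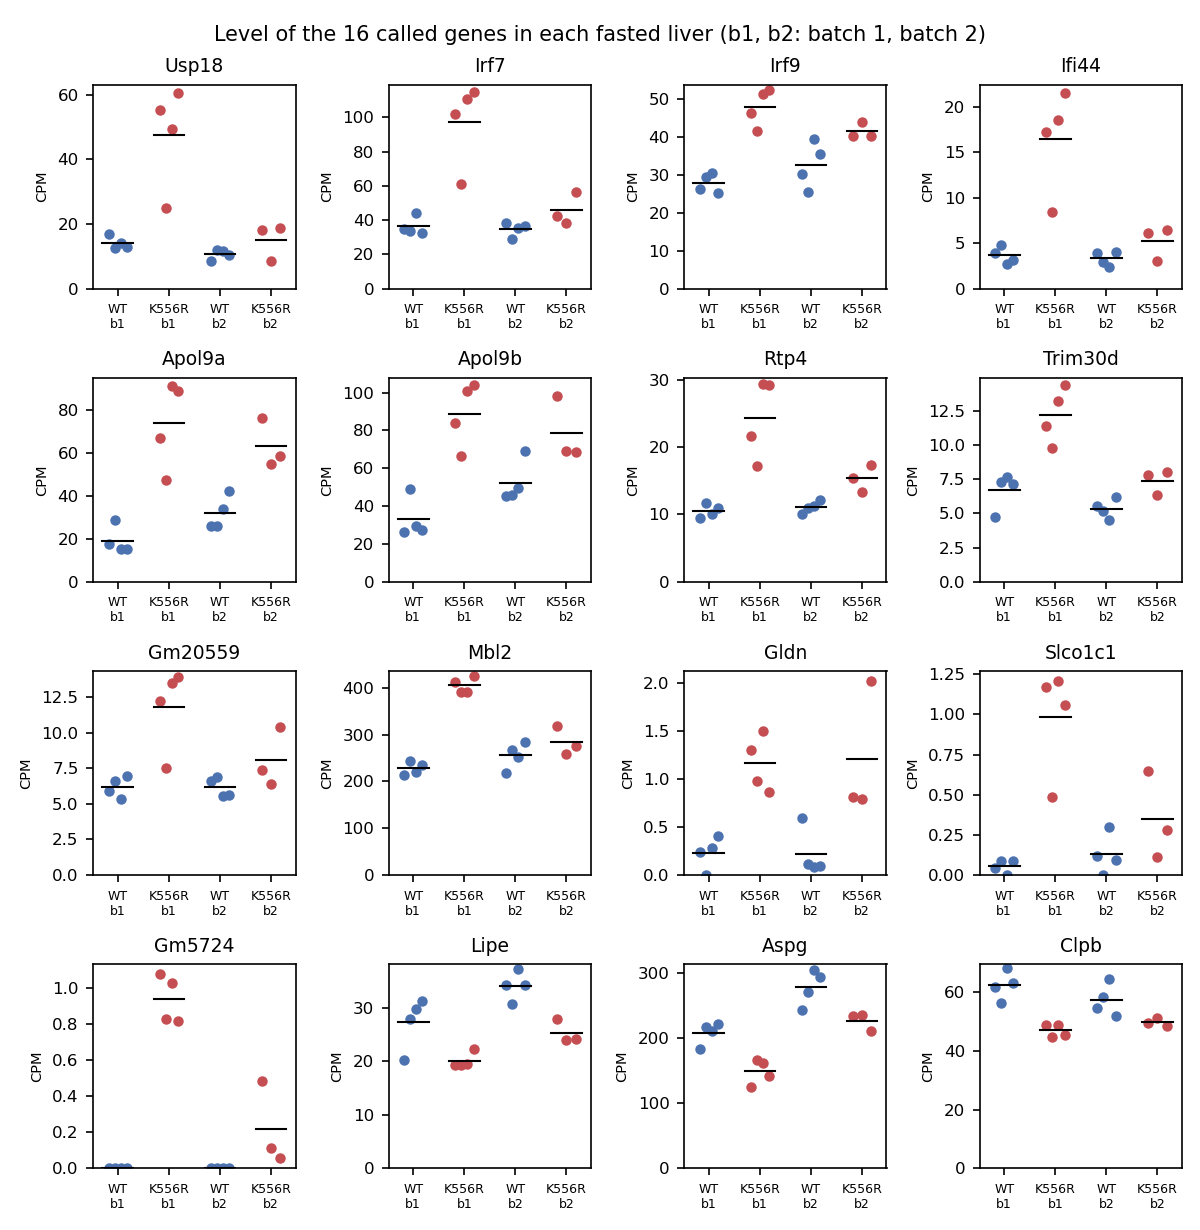
CPM of each of the 16 called genes (y axes, from 0) in the 15 fasted livers, by genotype and batch (x axes); points are libraries and bars their means. For Irf9, Apol9a, Rtp4, Gldn and Gm5724 the K556R points lie above all WT points, and for Usp18, Irf7 and Ifi44 replicate 2 is the lowest K556R library in each batch.

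Interferon-inducible GTPases, which attack the membranes around intracellular pathogens, had higher values too, though none passed. All 18 tested had a log2 fold change above 0, 13 had an unadjusted p below 0.05 on the higher side, and the median was 0.53. Irgm1, an autophagy-linked GTPase, ranged from 35.3 (median 39.2) to 50.3 CPM in WT and from 46.9 (median 56.1) to 83.0 CPM in K556R. These ranges overlapped only slightly, and at log2 0.55 (SE 0.12, adjusted p = 0.0506, edgeR quasi-likelihood) Irgm1 lay just outside the threshold. Gbp3 stood at 0.94 (SE 0.21, adjusted p = 0.0667) and Gbp6 at 1.02 (SE 0.24, adjusted p = 0.0679), both guanylate-binding proteins. In batch 1 Gbp3 differed by 1.40 and in batch 2 by 0.39.

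The genes upstream and beside these gave smaller values. Of 16 sensors and adaptors of nucleic acid, 13 were above 0 and 6 had unadjusted p below 0.05 on the higher side, with a median of 0.29 and none called. Dhx58, a regulator of RNA sensing, was at 0.53 (SE 0.12, adjusted p = 0.0811, edgeR quasi-likelihood) and Ifih1, the RNA sensor MDA5, at 0.45 (SE 0.11, adjusted p = 0.0939). Of 20 MHC class I and immunoproteasome genes, 16 were above 0, 7 had unadjusted p below 0.05 on the higher side, the median was 0.10 and none was called. B2m, the light chain of MHC class I, was at 0.21 (SE 0.06, adjusted p = 0.188).

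The interferon-list increase was not even across libraries. Of the 49 effectors, 46, 48 and 48 exceeded every WT library of the same batch in K556R replicates 1, 3 and 4 of batch 1, and 33 did in replicate 2. In batch 2 the counts were 25 in replicate 1, 15 in replicate 2 and 40 in replicate 3. Over all tested genes, 18.0% to 22.5% of genes did so in any one K556R library. The mean log2 CPM of the effectors was 3.35 to 3.43 in WT and 3.74 to 4.60 in K556R in batch 1, and 3.14 to 3.48 and 3.36 to 3.85 in batch 2. The genotypes were thus apart in batch 1 and overlapped in batch 2.

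All 49 effectors had a larger log2 fold change in batch 1 than in batch 2, with medians of 0.96 and 0.30. The test of that difference gave an unadjusted p below 0.05 for 25 of the 49 and for 5.26% of all tested genes. No gene passed after adjustment (0.0% of 15603 in edgeR's quasi-likelihood test, 820 genes at an unadjusted p below 0.05, and 1 gene by DESeq2). For the GTPases 12 of 18 were larger in batch 1, with medians of 0.64 and 0.43. In batch 1 alone 33 genes were called, and in batch 2 alone 0, with 983 at an unadjusted p below 0.05 in edgeR.

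**Figure D3:**
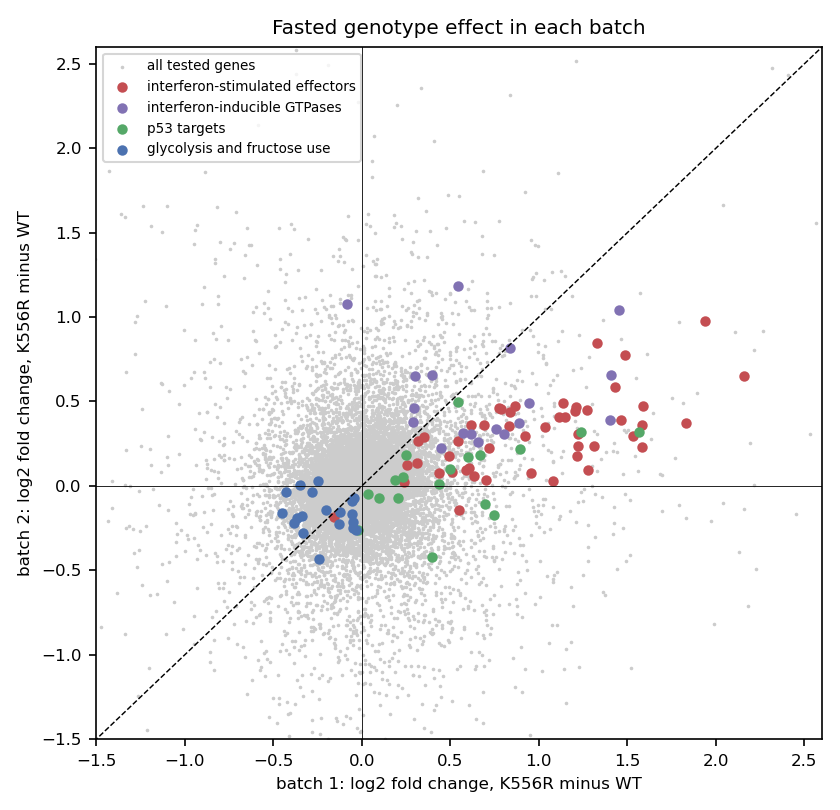
Log2 fold change of fasted K556R over WT in batch 1 (x axis) against batch 2 (y axis), both axes shown from -1.5 to 2.6; each point is a gene and the dashed line marks equal values. All 49 interferon-stimulated effectors lie below the dashed line, and 47 are above 0 in both batches.

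Markers of immune cells are given beside these genes, since whole liver includes them and, in bulk RNA, more cells of a type and more RNA per cell cannot be told apart. Of 18 Kupffer cell and macrophage markers 15 were above 0, 1 had unadjusted p below 0.05, the median was 0.11, and the mean level ranged from 4.05 to 5.15 in WT and 4.21 to 4.89 in K556R in batch 1 and from 3.59 to 4.63 and 3.27 to 5.0 in batch 2. Of 7 markers of plasmacytoid dendritic cells, which are strong producers of interferon, 5 were above 0 and 2 had unadjusted p below 0.05, Bst2 and Ccr9. Their mean levels overlapped in both batches, at 1.54 to 2.28 in WT and 1.79 to 2.53 in K556R in batch 1 and 1.18 to 2.09 and 1.27 to 2.46 in batch 2. Siglech, a defining gene of these cells, had 120 reads over the WT and 171 over the K556R libraries, and Bst2 is itself interferon-induced.

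Lymphocyte markers separated the genotypes in batch 2 and not in batch 1. Of 14 tested, 10 were above 0, 2 had unadjusted p below 0.05 on the higher side, and the median was -0.36 in batch 1 and 0.92 in batch 2. Their mean log2 CPM was -0.61 to 0.96 in WT and -0.58 to 0.19 in K556R in batch 1, and -1.15 to -0.49 in WT and -0.34 to 0.22 in K556R in batch 2. These levels were low, and batch 2 has 3 fasted K556R libraries. Of 4 tested neutrophil markers 3 were above 0, with 0 at an unadjusted p below 0.05. The part of these cells in the interferon-list values was not tested.

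Mbl2, the mannose-binding lectin that hepatocytes secrete to tag microbes for complement, ranged from 214 (median 239) to 283 CPM in WT and from 258 (median 391) to 425 CPM in K556R. All 4 K556R libraries of batch 1, at 391 to 425, lay far above WT at 214 to 243, while in batch 2 the ranges were 258 to 318 and 217 to 283 and overlapped. Mbl2 rose by log2 0.51 (SE 0.10, adjusted p = 0.0316, edgeR quasi-likelihood), 0.83 in batch 1 and 0.15 in batch 2. The batch difference had an unadjusted p of 0.000138 and an adjusted p of 0.635. Of the 30 lectin, complement and acute-phase genes tested, 14 were above 0 and Mbl2 alone was called.

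Gm5724 and Slco1c1 stand on either side of Slco1b2 in a cluster of organic anion transporter genes on chromosome 6, genes whose products carry bile salts, hormones and drugs into cells. Gm5724 (chr6:141708118-141773810, minus strand) had 0 reads in all 8 WT libraries. The 7 K556R libraries had 24, 17, 29 and 17 reads in batch 1 and 9, 2 and 1 in batch 2, together 99. Every K556R library thus exceeded every WT library, though by 1 read in the lowest. Against a floor of 3 reads over the WT group the level was at least 37.8-fold higher with both batches pooled (adjusted p = 0.000201, edgeR quasi-likelihood). Most of the K556R reads came from batch 1, so this fold is no lower bound for batch 2. Of the fasted groups only K556R had reads, so among fasted libraries only those of K556R helped the gene past the low-count filter. Refed libraries count towards that filter too. Since the gene entered the test through the fasted group where it was high, its p-value is no independent support. Neither DESeq2 nor the fasted libraries alone called it.

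Slco1c1 (chr6:141524368-141570177, plus strand), a thyroid hormone transporter of the blood-brain barrier, had 0 to 7 reads (median 2) in WT and 2 to 34 (median 12) in K556R. The ranges overlapped in batch 2 and were apart in batch 1. It rose by log2 2.67 (SE 0.56, adjusted p = 0.0482, edgeR quasi-likelihood). No WT library reached the filter's minimum count of 10, so of the fasted groups only K556R helped Slco1c1 past it. Its p-value is therefore no independent support either, and neither DESeq2 nor the fasted libraries alone called it. Slco1b2, which lies between them, had 17178 to 34322 reads in WT and 21069 to 28093 in K556R. Both neighbours are therefore at the level of a very small share of Slco1b2's reads. The sources used here do not state the strand setting of the counting, so reads of close copies or of the other strand could be counted in them. Of the 8 tested genes of the family, 6 were above 0 and these 2 were the ones called.

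Gldn, which encodes gliomedin, a secreted and membrane protein known from myelinating Schwann cells, ranged from 0 (median 0.175) to 0.593 CPM in WT and from 0.788 (median 0.973) to 2.02 CPM in K556R. No library of one group reached the range of the other, in either batch. It rose by 2.38 on the log2 scale (SE 0.40, adjusted p = 0.0132 in edgeR's quasi-likelihood test), 2.31 in batch 1 and 2.48 in batch 2. In absolute terms it was low, with 14 to 42 reads per K556R library and 0 to 10 per WT library. Of the fasted groups it was thus mainly K556R that brought Gldn past the low-count filter. Its separation and p-value are not independent of that filter.

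The genes that fell were enzymes or chaperones, with modest changes. Aspg, an asparaginase, ranged from 183 (median 232) to 304 CPM in WT and from 125 (median 166) to 235 CPM in K556R. Levels were higher in batch 2 for both genotypes, and within each batch all K556R libraries lay below all WT libraries, which 0.282% of tested genes did. Aspg fell by 0.40 on the log2 scale (SE 0.07, adjusted p = 0.0176, edgeR quasi-likelihood) and was called in 24 of the 29 fits without 1 library.

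Clpb, a chaperone of the mitochondrial intermembrane space that dissolves protein aggregates, ranged from 51.9 (median 60.1) to 68.4 CPM in WT and from 44.7 (median 48.8) to 51.4 CPM in K556R. Every K556R library lay below every WT library. It fell by 0.31 on the log2 scale (SE 0.07, adjusted p = 0.0482, edgeR quasi-likelihood) and was called in 9 of those 29 fits. Of 18 mitochondrial chaperone and heat shock genes, 11 were above 0, and Clpb was the only one called.

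Lipe, the hormone-sensitive lipase that splits diacylglycerol and cholesteryl esters, ranged from 20.2 (median 31.0) to 37.2 CPM in WT and from 19.2 (median 22.2) to 27.9 CPM in K556R. In batch 2 the K556R libraries lay below all WT libraries, and in batch 1 WT replicate 1 lay within the K556R range. Lipe fell by 0.44 on the log2 scale (SE 0.09, adjusted p = 0.0415, edgeR quasi-likelihood), by the same amount in batch 1 (-0.44) and batch 2 (-0.43). Of 25 tested lipid droplet and lipolysis genes, 20 were below 0 and 3 had unadjusted p below 0.05 on the lower side (5.19% of all tested genes), Lipe, Mgll and Hsd17b11.

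Since Lipe is abundant in fat cells, adipocyte markers are given beside it. Of 9 listed, 5 were tested, 4 of them below 0, and their mean log2 CPM was 4.83 to 5.01 in WT and 4.20 to 4.78 in K556R in batch 1, and 4.89 to 5.13 and 4.12 to 4.79 in batch 2, with no overlap in either. Of the 37 lists with tested genes, this was the only one lower in K556R in both batches in this sense. The 4 below 0 were Cidea, Cidec, Cfd and Fabp4, none of which passed, and Cidea and Cidec are also lipid droplet proteins of fatty hepatocytes. The defining adipocyte genes were near 0: Adipoq had 1 read in WT and 5 in K556R over all libraries, Plin1 6 and 13, and Lep 0 and 0. The part of fat cells in the fall of Lipe was not tested.

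**Figure D4:**
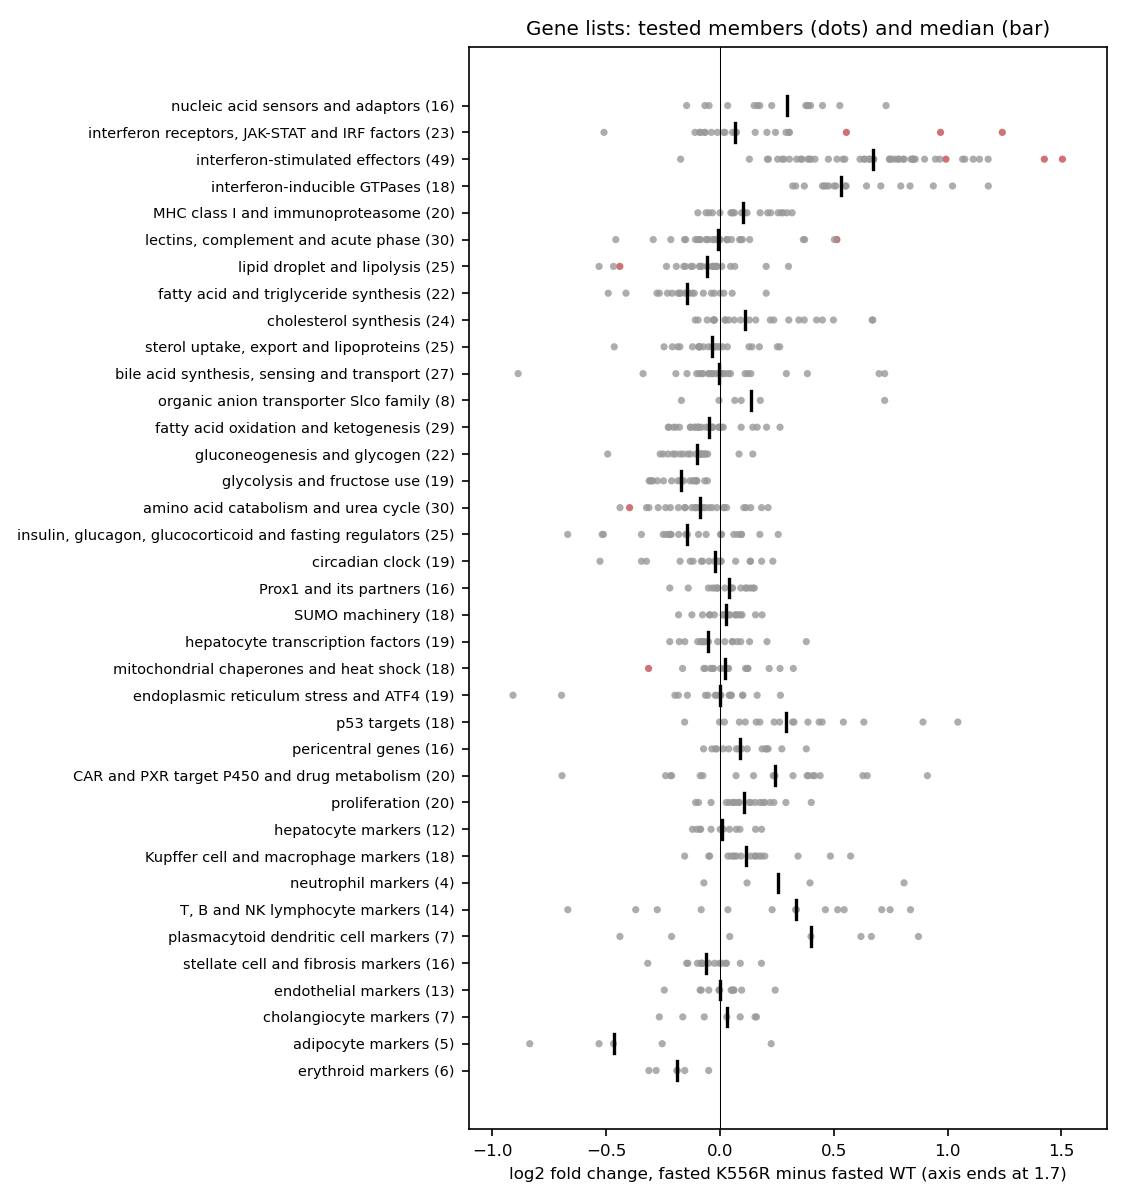
Log2 fold change of fasted K556R over WT (x axis) for the tested members of 37 gene lists (rows, number tested in brackets); grey dots are genes, red dots called genes and bars list medians. The 2 called Slco genes, at 2.67 and 6.60, lie beyond the axis; effectors and GTPases sit to the right of 0, and all 19 glycolysis and fructose genes to the left.

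Genes of fuel use gave small differences, mostly below 0, and apart from Aspg and Lipe none passed. All 19 tested genes of glycolysis and fructose use were below 0, 17 of them in both batches, with a median of -0.17. Of these, 8 had an unadjusted p below 0.05, where 5.19% of all tested genes did on the lower side. Khk, the ketohexokinase that starts fructose breakdown, ranged from 542 (median 620) to 803 CPM in WT and from 449 (median 509) to 647 in K556R. The groups overlapped, at a log2 fold change of -0.30 (SE 0.09, adjusted p = 0.227 in edgeR's quasi-likelihood test). Pklr, liver pyruvate kinase, was at -0.31 (SE 0.12, adjusted p = 0.400). The mean log2 CPM of this list was 7.85 to 8.07 in WT and 7.72 to 7.86 in K556R in batch 1, and 7.32 to 7.43 and 7.20 to 7.24 in batch 2.

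Of 22 genes of gluconeogenesis and glycogen, 20 were below 0 and 4 had unadjusted p below 0.05, with a median of -0.10. The share of all tested genes below that p on the lower side was 5.19%, for this and the next lists. Fbp1, fructose bisphosphatase, was at -0.26 (SE 0.07, adjusted p = 0.175, edgeR quasi-likelihood) and Pcx, pyruvate carboxylase, at -0.25 (SE 0.08, adjusted p = 0.291). Of 30 genes of amino acid catabolism and the urea cycle, 22 were below 0 and 5 had unadjusted p below 0.05, Aspg among them. Of 25 insulin, glucagon, glucocorticoid and fasting regulators, 15 were below 0 and 6 had unadjusted p below 0.05, all on the lower side. Cebpb, a factor that glucagon and glucocorticoid raise in fasting, was at -0.51 (SE 0.13, adjusted p = 0.132), and Ddit4, an mTORC1 inhibitor, at -0.67 (SE 0.25, adjusted p = 0.388). Of 29 fatty acid oxidation genes, 21 were below 0 with a median of -0.05.

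Among lipid synthesis genes, 18 of 22 for fatty acids and triglycerides were below 0 (median -0.14). Only 2 of them had unadjusted p below 0.05 on the lower side, near the 5.19% of all tested genes. Srebf1, the factor that drives them, was at -0.41 (SE 0.15, adjusted p = 0.349, edgeR quasi-likelihood). Cholesterol synthesis genes had a median of 0.11 with 17 of 24 above 0 and 1 with an unadjusted p below 0.05, and the median was 0.27 in batch 1 and -0.03 in batch 2. Of 25 genes for sterol uptake, export and lipoproteins, 18 were below 0 and 4 had unadjusted p below 0.05. Bile acid genes were evenly split, 13 of 27 above 0. Nr0b2, the bile acid-induced repressor SHP, was at -0.89 (SE 0.26, adjusted p = 0.214), and Cyp7a1, the rate-limiting enzyme of bile acid synthesis, at 0.38 (SE 0.20, adjusted p = 0.565).

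Targets of p53, which respond to DNA damage and other stress, were above 0 in 16 of 18 cases, with a median of 0.29. On the higher side 6 had an unadjusted p below 0.05 (4.29% of all tested genes did), and none passed. The median was 0.47 in batch 1 and 0.04 in batch 2, and all 18 were larger in batch 1. Ccng1, a cyclin and direct p53 target, ranged from 43.0 (median 50.9) to 55.8 CPM in WT and from 52.2 (median 72.3) to 88.5 CPM in K556R. These ranges overlapped only at their edges, and it lay close to the threshold at log2 0.45 (SE 0.10, adjusted p = 0.0583, edgeR quasi-likelihood). Eda2r, a TNF receptor family member, was at 1.05 (SE 0.27, adjusted p = 0.123) and Mdm2, the p53 ubiquitin ligase, at 0.33 (SE 0.09, adjusted p = 0.183). Replicates 1, 3 and 4 of batch 1 had 14, 12 and 16 of the 18 above every WT library of the batch, and replicate 2 had 5. In batch 2 the counts were 3, 2 and 3 in replicates 1, 2 and 3. Over all tested genes, 18.0% to 22.5% did so in any one K556R library.

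Genes closest to the allele itself did not stand out. Of 16 genes for Prox1 and its partners, 9 were above 0 and the median was 0.04, and of 18 SUMO machinery genes 12 were above 0 with a median of 0.03. Esrra, an orphan nuclear receptor partner, was at -0.22 (SE 0.09, adjusted p = 0.400, edgeR quasi-likelihood), and Senp5, a SUMO protease, at 0.19 (SE 0.06, adjusted p = 0.323). Proliferation genes had a median of 0.11 and 0 with an unadjusted p below 0.05, and 14 of 20 CAR and PXR target genes were above 0, with medians of 0.55 in batch 1 and -0.23 in batch 2.

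**Figure D5:**
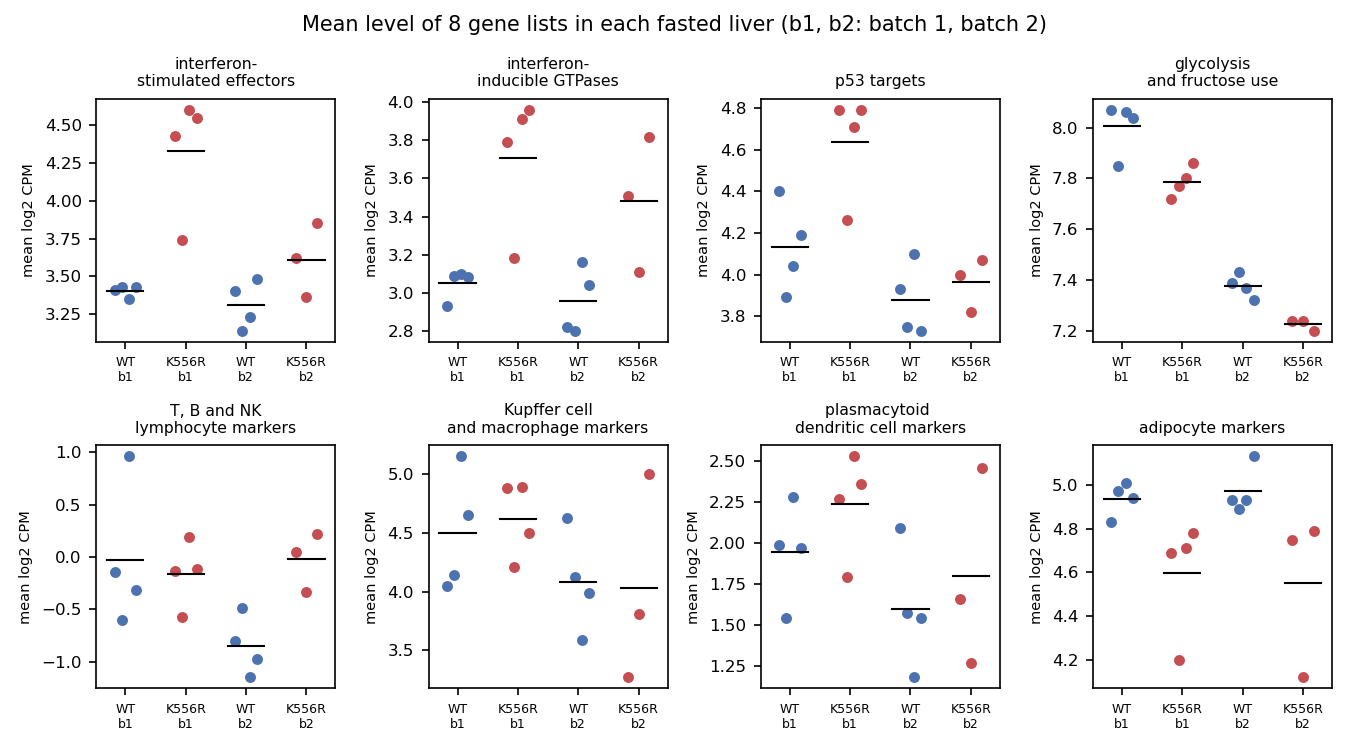
Mean log2 CPM of the tested members of 8 lists (y axes, not from 0) in each fasted liver, by genotype and batch (x axes); points are libraries and bars group means. Effectors and GTPases are apart between genotypes in batch 1 and overlap in batch 2, lymphocyte markers are apart in batch 2, and adipocyte markers are lower in K556R in both.

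In refed livers of the same study, the effectors had a median log2 genotype effect of 0.55 and the GTPases of 0.42. No gene differed between the fasted and the refed genotype effect after adjustment (0.0% of 15603 in edgeR's quasi-likelihood test, and 440 genes, 2.82%, at an unadjusted p below 0.05). For Gldn the effect was 2.38 fasted and 1.00 refed, and the unadjusted p of that difference was 0.0244. Whether any called gene is peculiar to the fasted state is therefore not shown.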

How the data were processed

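Per the labels, each library is 1 liver. The authors deposited raw read counts per gene as whole numbers, and mm10 is the build in the submitters' processing notes, which list as tools HTSeq, STAR, STAR-Fusion, TopHat, edgeR and DESeq2. Their roles, the annotation release and the strand setting are not given in the sources used here. Identifiers were matched to GENCODE M21 (54409 of 54532, with 0.025% of counts unmatched).

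Genes were kept by filterByExpr (minimum count 10, minimum total 15), which left 99.92% of counts, and scaled by TMM. A quasi-likelihood model with 4 groups and batch was fitted to all 29 libraries in edgeR 4.0.16 (R 4.3.3), so that the 14 refed libraries add to the estimate of spread (common biological coefficient of variation 0.191). Calls need an adjusted p below 0.05 (Benjamini-Hochberg, over all tested genes), and SEs follow from the F statistic. Floors cover counting error only, since gene counts may include PCR duplicates. Batch effects were compared with 1 coefficient per group and batch. List levels are mean log2 CPM (prior count 2). The alternatives were other scaling and filters, DESeq2 1.42.0, limma-voom with sample quality weights (limma 3.58.1), fasted libraries only, no batch term, each batch alone, a replicate block, and leaving out each library. All 49 pairs of libraries within a fasted group differed by more than sampling noise (chi-square over its degrees of freedom 11 to 146).

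On simulated counts for this comparison (15603 genes, 200 changed), the test found 38% of the genes that differed 1.25-fold and 70% of those that differed 1.5-fold. For 2-fold and 4-fold the shares were 94% and 100%, and 7 of 158 calls were false. The changed genes were drawn only from those whose mean log2 CPM was not negative, so the shares do not cover genes with few reads. The simulated spread was that of the fitted model. More genes were called there than the 16 in the data, which eases the adjusted threshold, so the shares may be too high for these data. Members and lists were chosen with earlier results of these data known. Named are Prox1, all called genes, the 20 next by p and up to 6 members of each list by p (for cell types, also the first 3 tested). Dlk1, Rian and Slco1b2 were added after their values were seen. Results for 2 single genes that the rule names are not reported here, though both stay in the lists.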

Additional observations from a re-analysis of the deposited data

Results flagged for a closer look

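Levels of Prox1, the called genes and the lists were checked within the fasted WT and the fasted K556R livers. Of 107 such groups of values searched for a library far from the rest, 1 stood out, where chance alone gives about 1 in 20. In fasted WT livers the mean log2 CPM of the cholesterol synthesis genes was 6.1 in replicate 1 of batch 1, the highest, against a group median of 5.43, and the gap to the next library was 0.599 of the range of all 8 WT libraries.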

How the results depend on the processing

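Against 16 called genes (13 higher, 3 lower), no low-count filter gave 45 (41 higher), a mean log2 CPM of at least 1 gave 10 (8 higher), DESeq2 gave 89 (62 higher, 27 lower), limma-voom with sample quality weights (test and weighting changed together) gave 118 (85 and 33) and the fasted libraries alone gave 26 (21 and 5). No batch term gave 2 (2 higher, 0 lower), batch 1 alone 33 (31 higher) and batch 2 alone 0 (0 higher, 0 lower; 983 at an unadjusted p below 0.05 in edgeR). RLE scaling gave 18. Of the 16, limma-voom with these weights and RLE scaling each called all 16, DESeq2 14 and the fasted libraries alone 12. Leaving out each library gave 2 to 46 genes, 2 to 39 higher and 0 to 9 lower. The highest counts came without refed K556R batch 1 replicate 4 (46), fasted K556R batch 1 replicate 2 (43) and batch 2 replicate 2 (36), and fasted WT batch 2 replicate 4 (34), the lowest, 2 to 5, without any other fasted batch 1 library or fasted K556R batch 2 replicate 1 or 3, and 7 to 10 without refed WT batch 1 replicate 1 or batch 2 replicate 3 or refed K556R batch 2 replicate 2 or 3. Libraries of the same repeat number were alike in part in batch 1 and not in batch 2. Residual correlations of the same number were 0.0634 to 0.32 over the 4 pairs of batch 1, where 3 of 4 K556R libraries correlated best with their own number, and -0.106 to -0.0612 over the 3 of batch 2, where 0 did. With a replicate block 2 genes were called, 1 higher and 1 lower. DESeq2 found 1 gene that differed between batches. As log2 of summed CPM, the differences were -0.149 for sterol uptake genes, 0.0873 for the Slco family and -0.273 for glycolysis. No called gene changed sign under these alternatives. Over named genes and alternatives, 1014 values kept their side of the threshold, 185 crossed to called and 230 from called. Genes with few reads, such as Gm5724 and Slco1c1, are limited by depth.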

Other observations

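Reads at an imprinted cluster on chromosome 12 varied between K556R libraries. Within batch 1 their lowest library was also that of the interferon-stimulated effectors and of several unrelated lists. Meg3, a maternally expressed noncoding RNA of this cluster, had 104, 31, 212 and 106 reads in K556R replicates 1 to 4 of batch 1 and 29, 20 and 30 in batch 2, against 11 to 26 in the 8 WT libraries. Rian, its neighbour, had 63, 14, 108 and 68 reads in K556R batch 1, 5 to 6 in batch 2 and 3 to 8 in WT. Dlk1, the paternally expressed gene at the other end, had 46, 2, 112 and 54 reads in K556R batch 1, 1 to 11 in batch 2 and 0 to 10 in WT. None passed the adjusted test: Meg3 stood at log2 1.76 (SE 0.39, adjusted p = 0.0603, edgeR quasi-likelihood), Rian at 2.20 (SE 0.55, adjusted p = 0.104) and Dlk1 at 2.92 (SE 0.81, adjusted p = 0.175). In batch 1 replicate 2 was the lowest K556R library for all 3 genes, as it was for the mean level of the effectors (3.74, against 4.43 to 4.60 in the other 3). The same library was also the lowest for p53 targets (4.26), Kupffer cell markers (4.21) and stellate cell markers (3.48). For hepatocyte markers it was the highest (11.9). The match is thus not particular to the effectors, and a link between them and this cluster was not tested. In batch 2 the effectors were highest in replicate 3 (3.85), as was Meg3 (30 reads). Dlk1 was highest in replicate 1 of that batch (11 reads), and Rian hardly varied there. Rian and Dlk1 were singled out after their values were seen.

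Saa1, an acute-phase protein, was far higher in 1 fasted WT library of batch 2 than elsewhere: the WT range was 136 to 733 CPM with a median of 199, and the K556R range 106 to 233.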
